A study of Mus musculus with 58 samples.

Results

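The comparison described here set the untreated PCGF35 degron line against its parental line on day 6 of differentiation to neuronal precursor cells (NPC). Its members were picked by their titles, as the untreated degron cultures and the parental cultures of that day, 2 libraries each, and make up 4 of the 58 libraries of the series. The series followed Xist-mediated silencing in female hybrid mouse embryonic stem cells (mESC) that carry one X chromosome from a domesticus-type 129S mouse (Dom) and one from a castaneus mouse (Cast). Chromatin-associated RNA was sequenced (ChrRNA-seq), so transcripts were read at the gene and could be assigned to an allele at sequence differences between the strains. The parental line, iXist-ChrX-Dom (WT), has the promoter of Xist on the Dom X replaced by a doxycycline-inducible one. The study reports a recombination event in this line, because of which some X-linked genes could not be evaluated by allele. The degron line (PCGF35) is a picked clone made from the parental line by CRISPR, in which both copies of Pcgf3 and Pcgf5 carry an FKBP12 degron tag. All 4 cultures received doxycycline at 1 ug/mL for 6 days, and none received dTAG-13, the compound that directs a tagged protein to degradation. The question is therefore what differs before any degradation is induced, through the tag, the editing or the history of the clone. Each line is represented by 1 cell line. The WT cultures are described as grown in parallel with SPEN mutant clones, and whether PCGF35 was grown beside them is not stated. Tag, clone and experiment therefore cannot be told apart. The same lines on day 3 of the same protocol, 4 libraries, entered the fits and are given beside the day 6 values.

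PCGF3 and PCGF5 are alternative subunits of non-canonical Polycomb repressive complex 1 (PRC1), which ubiquitinates histone tails and is brought to the inactive X through a repeat region of Xist RNA. An FKBP12 degron leaves a protein in place until the small molecule dTAG-13 links it to a ubiquitin ligase, so an untreated degron line serves as the control of a degradation experiment. Clones of mouse embryonic stem cells can differ from their parental line in karyotype, in the balance of naive and primed pluripotency and in the lineages they form, whether or not the edited gene is affected.

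The 4 libraries held between 9.19 M (mega) and 15.9 M fragments counted in genes, the second PCGF35 library being the shallowest, and 47.2% to 48.0% of fragments could be assigned to an allele. Levels are given as counts per mega of library (CPM). Pcgf3, on chromosome 5, stood at 78.8 and 93.7 CPM in WT and at 89.7 and 75.3 CPM in PCGF35. Pcgf5, on chromosome 19, stood at 41.8 and 63.6 CPM in WT and at 60.2 and 94.8 CPM in PCGF35. Both pairs of libraries overlapped, and edgeR's quasi-likelihood test gave log2 fold changes of -0.06 (SE 0.14, adjusted p = 0.891) for Pcgf3 and 0.55 (SE 0.31, adjusted p = 0.451) for Pcgf5. The Dom ratio, meaning Dom fragments over Dom plus Cast fragments, lay between 0.486 and 0.520 for Pcgf3 and between 0.512 and 0.561 for Pcgf5 in the 4 libraries. Counts per gene do not show the tag itself, and neither gene's transcript checks the amount of protein.

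Among the 20 chromosomes, the largest difference between the lines in median Dom ratio was on chromosome 11, and it covered the chromosome from end to end. Over all genes of this chromosome, Dom fragments made up 55.2% and 53.5% of allelic fragments in the 2 WT libraries and 68.7% and 68.9% in the 2 PCGF35 libraries. Counting error was small beside this, since the 95% Wilson intervals were 55.0% to 55.3%, 53.4% to 53.7%, 68.6% to 68.8% and 68.8% to 69.1% in that order. On day 3 the shares were 54.5% and 55.1% in WT and 69.2% and 69.0% in PCGF35. Every PCGF35 library thus lay above every WT library on both days, by 14.5 percentage points on day 6 and 14.3 on day 3. The exact two-sided permutation test of the lines within each day gave p = 0.0556, which is the smallest value that the 36 arrangements allow, and 0.185 after adjustment over the 20 chromosomes. This test counts days 3 and 6 as independent, although both may come from the same duplicate experiments. With 2 units against 2, an exact test cannot go below 0.333.

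**Figure D1:**
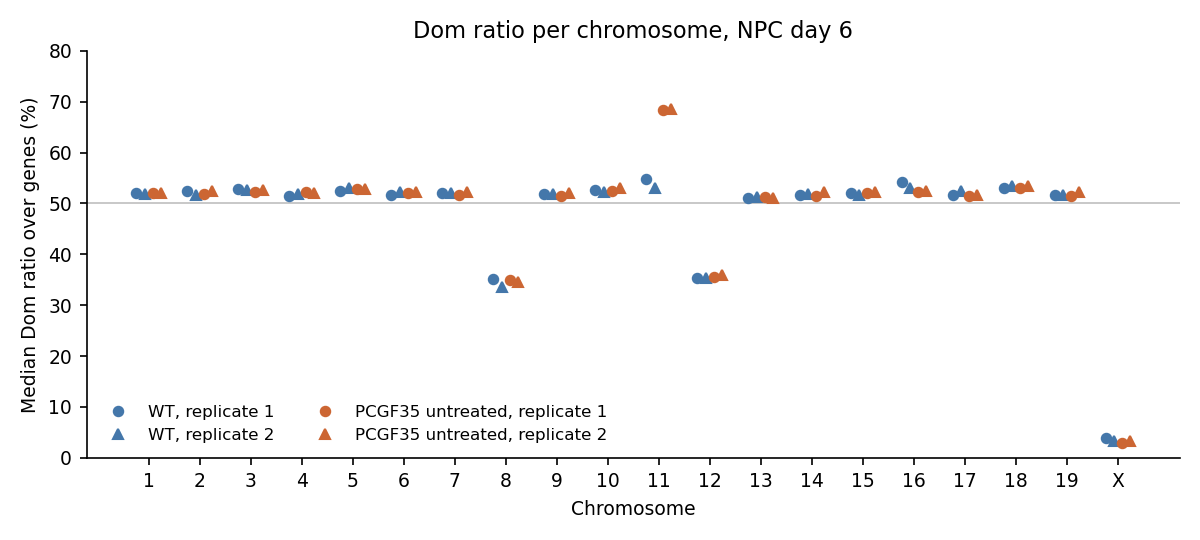
Median Dom ratio over genes, in percent, for each chromosome on NPC day 6, with 1 point per library and 2 libraries per line. On chromosome 11 both PCGF35 libraries stand above both WT libraries, while on the other autosomes the line means differ by -1.27 to 0.44 percentage points.

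By the pooled share, both PCGF35 libraries also lay above both WT libraries on both days on chromosomes 6, 8, 10 and 15, at the same p as chromosome 11, but the differences there were 0.27 to 0.60 points on day 6 and 0.72 to 0.83 on day 3. The pooled share of the X, Xist included, did so too at the same p, with differences of 7.07 points on day 6 and 5.32 on day 3. With Xist and Cmss1 left out, the X differed by -1.02 points on day 6 and 0.32 on day 3. The pooled share of chromosome 16 varied widely within both lines and differed by -1.80 points on day 6 and 13.2 on day 3. The median over genes of the other autosomes differed between the lines by -1.27 to 0.44 percentage points on day 6, against 14.6 for chromosome 11 (53.9% in WT and 68.5% in PCGF35). Chromosomes 8 and 12 had low pooled Dom shares in both lines alike, with 35.0% in WT and 35.6% in PCGF35 for chromosome 8 and 33.6% and 33.7% for chromosome 12. When chromosomes were cut into windows of 10 Mb, all 13 windows of chromosome 11 had a Dom share higher in PCGF35 by at least 5 points on both days, and none of the 240 windows of the other autosomes did. The window differences on day 6 ran from 11.9 to 19.6 points on chromosome 11, with a median of 13.6, and from -12.9 to 3.72 points on the other autosomes. The lowest was the sixth window of chromosome 16, where, with Cmss1 left out of all windows, the WT libraries had Dom shares of 52.0% and 13.8% and the PCGF35 libraries 35.7% and 4.32%, and where the difference on day 3 was 5.92 points.

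**Figure D2:**
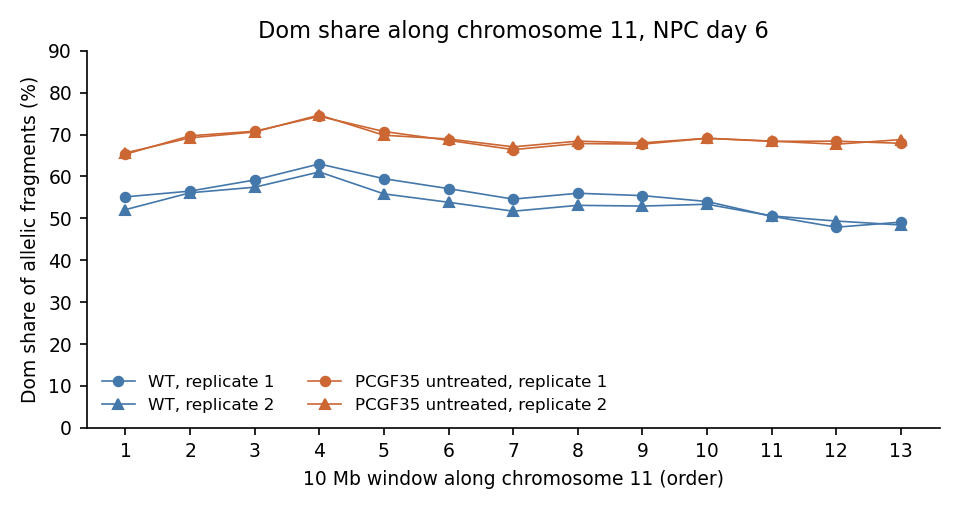
Dom share of allelic fragments in percent along chromosome 11 in windows of 10 Mb on NPC day 6, with 1 line per library and the order of the windows from the start of the chromosome on the horizontal axis. The 2 PCGF35 libraries run above the 2 WT libraries in all 13 windows.

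Single genes of chromosome 11 showed the same direction. Of 936 genes with at least 10 allelic fragments in each of the 8 libraries of days 3 and 6, 917 had a higher mean Dom ratio in PCGF35, and both PCGF35 libraries lay above both WT libraries in 827 (88.4%, against 18.5% of the 10170 tested genes on other autosomes) and below them in 4 (0.427%, against 18.1%). The median ratio over these genes was 53.8% in WT and 68.4% in PCGF35, and the median difference was 14.2 points. When Dom and Cast counts were tested with edgeR, 580 genes (62%) had a Dom ratio that rose at an adjusted p under 0.05, while 135 of the genes on other autosomes passed in either direction (1.33%). No gene of chromosome 11 fell, and none did at an unadjusted p under 0.05 either. Of the 580 genes, 513 were also called on day 3, which is 88.4% of the day 6 calls and 84.4% of the 608 day 3 calls (65% of the genes tested). Over all autosomes, 715 of 11106 genes were called on day 6 (6.44%), and the line difference changed between days for 4 of all 11473 genes (0.0349%).

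The autosomal genes with the largest called gains of Dom ratio lay on chromosome 11. Cdk12, which encodes a kinase of transcription elongation and lies at chr11:98203304-98253540 of mm10, had ratios of 0.288 and 0.315 in WT and of 0.670 and 0.656 in PCGF35, from 1263 to 2796 fragments per library. This was a log2 odds ratio of 2.20 (SE 0.10, adjusted p = 8.2e-18). In WT the ratio of Cdk12 lay below the chromosome's median of 53.8%. Its total level overlapped between the lines, with 583 and 448 CPM in WT and 430 and 456 CPM in PCGF35 (log2 fold change -0.22, adjusted p = 0.666). The ratio of Cdk12 was 0.670 in both dTAG-13-treated libraries of the PCGF35 line on day 6, and 0.161 and 0.148 in the SPEN SPOC mutant of the parental line.

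A further 8 genes of this group rested on 24 to 190 fragments per library. Sirt7, a nuclear deacetylase, had ratios of 0.417 and 0.254 in WT and 0.673 and 0.651 in PCGF35 (adjusted p = 0.00016). Smarcd2, a subunit of the BAF chromatin remodeller, went from 0.408 and 0.367 to 0.684 and 0.705 (adjusted p = 3.75e-05). Hexdc, a hexosaminidase gene, went from 0.425 and 0.422 to 0.637 and 0.758 (adjusted p = 5.91e-05). Non-overlap of the lines was a condition for naming these genes. The others were Gabarap, Mir466n, Psmc3ip, Sgsh and Slc26a11, whose adjusted p ran from 0.00028 for Slc26a11 to 0.00846 for Gabarap.

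The total level of chromosome 11 was higher as well. Among 1176 genes of the chromosome tested for expression, the median log2 fold change on day 6 was 0.33, with quartiles of 0.13 and 0.52, against a median of -0.0035 and quartiles of -0.21 and 0.21 over 13069 genes of the other autosomes. A fold change above 0 was seen for 999 genes (84.9%), compared with 49.5% of the genes on other autosomes. Set against all fragments of the other autosomes, the chromosome's fragments amounted to 8.69% in WT and 10.9% in PCGF35, a ratio of 1.25. Split by allele, Dom fragments of chromosome 11 amounted to 4.25% and 6.75% of the allelic fragments of other autosomes, a ratio of 1.59, and Cast fragments to 3.57% and 3.06%, a ratio of 0.858. DNA was not measured in these libraries.

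The chromosome 11 share was also compared across the lines of the series. In the plot of all libraries, the 16 libraries of the PCGF35 line, which include mESC before doxycycline and cultures with dTAG-13, gave Dom shares of 68.7% to 69.2%. The 16 libraries of the PCGF35 line with the SPOC mutation gave 68.2% to 69.0%. The 4 WT libraries gave 53.5% to 55.2% and the 10 libraries of the SPOC line 47.3% to 54.6%. One SPOC clone differed within itself, with 54.5% and 54.6% in mESC and 47.9% and 47.8% in NPC. Lines whose Xist lacks the Polycomb-recruiting region stood on the other side, with 35.5% to 36.6% in 4 libraries without the SPOC mutation and 35.0% to 35.8% in 8 with it. The range of the PCGF35 line thus lay above that of WT with and without treatment.

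**Figure D3:**
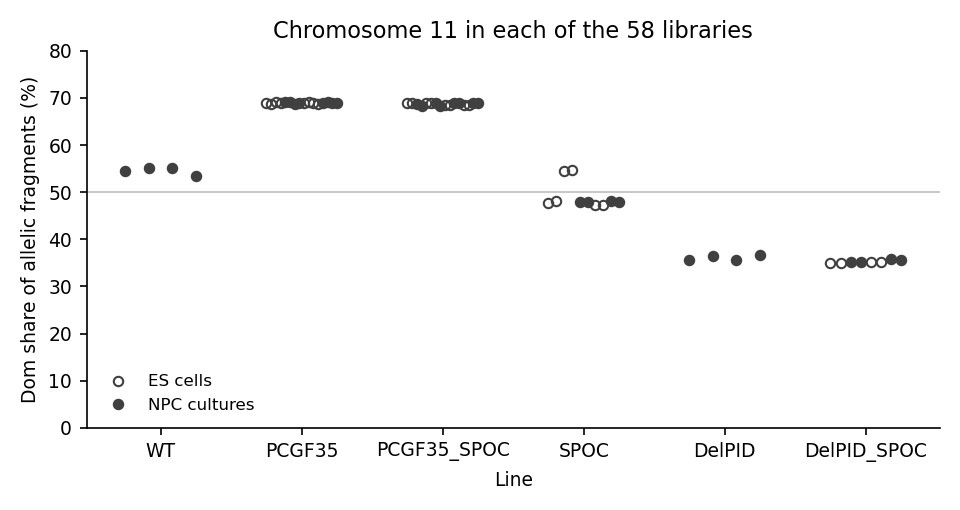
Dom share of chromosome 11 in percent in each of the 58 libraries, grouped by line, with open points for mESC and filled points for NPC. Libraries of the PCGF35 line and of the PCGF35 line with the SPOC mutation lie between 68.2% and 69.2%, above every library of the other lines.

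Across all genes, few differences in expression on day 6 passed the test. Of 14774 genes, 22 were called at an adjusted p under 0.05 (0.149%), 6 higher (0.0406%) and 16 lower (0.108%) in PCGF35, and 2130 had an unadjusted p under 0.05 (14.4%), 1188 higher (8.04%) and 942 lower (6.38%). DESeq2 called 332 of the same genes (2.25%), 144 higher (0.975%) and 188 lower (1.27%), including all 22, and edgeR with the replicate number as a block called 465. On day 3, edgeR called 400 (2.71%), and 21 of the 22 day 6 genes had the same direction there. The difference between days was called for 0 genes by edgeR and 0 by DESeq2, with 789 and 527 at an unadjusted p under 0.05. Averaged over both days, an alternative added after the data were seen, 1332 genes were called (9.02%), 702 higher (4.75%) and 630 lower (4.26%). The day 6 count depended on single libraries, since 0 genes were called without the first PCGF35 library of day 6, 1 without the second, 1 without the second WT library and 110 without the first. In these bulk cultures, fewer cells of a type and less RNA per cell cannot be told apart.

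Of the 6 genes that rose, Lgals9, Xaf1 and Trim25 lay on chromosome 11. Lgals9 encodes galectin-9, Xaf1 a binding partner of the apoptosis inhibitor XIAP, and Trim25 a ubiquitin ligase of the antiviral RNA sensing pathway. The 250 bases before the start of each gene are given because these are the 3 called genes on the chromosome whose allele balance differed. They come from RefSeq on GRCm38.p6 and are written 5′ to 3′ on the strand of the gene, from chr11:78984925-78985174 on the minus strand for Lgals9, chr11:72301379-72301628 on the plus strand for Xaf1 and chr11:88999153-88999402 on the plus strand for Trim25. Capitals mark a match to GAAANNGAAA on either strand, the core of an interferon-stimulated response element, a motif chosen after these genes were seen.
Lgals9: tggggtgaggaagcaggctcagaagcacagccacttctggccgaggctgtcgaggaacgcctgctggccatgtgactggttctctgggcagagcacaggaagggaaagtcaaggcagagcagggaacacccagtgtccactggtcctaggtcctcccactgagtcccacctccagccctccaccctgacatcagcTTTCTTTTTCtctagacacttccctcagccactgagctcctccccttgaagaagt
Xaf1: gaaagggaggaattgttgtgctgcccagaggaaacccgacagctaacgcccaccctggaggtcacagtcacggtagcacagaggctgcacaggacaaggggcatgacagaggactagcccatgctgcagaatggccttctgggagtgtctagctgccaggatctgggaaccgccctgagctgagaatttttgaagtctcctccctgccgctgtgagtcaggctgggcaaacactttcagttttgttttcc
Trim25: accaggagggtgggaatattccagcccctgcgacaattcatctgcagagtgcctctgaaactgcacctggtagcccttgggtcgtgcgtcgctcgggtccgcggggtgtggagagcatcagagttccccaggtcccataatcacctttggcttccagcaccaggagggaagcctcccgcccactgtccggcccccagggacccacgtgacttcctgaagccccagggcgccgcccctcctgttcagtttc
Lgals9 held the motif once, in the orientation opposite to the gene, and the letters were not found in the windows of Xaf1 and Trim25. Over all promoter windows of this length in the table, 978 of 32851 held it (2.98%).

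Trim25, at chr11:88999402-89020293, stood at 34.4 and 35.9 CPM in WT and at 70.0 and 70.3 CPM in PCGF35. The libraries of a line were close to each other and far from those of the other line, at a log2 difference of 1.00 (SE 0.12, adjusted p = 0.0294), and of 0.88 on day 3 (adjusted p = 0.0186). Its Dom ratio rose from 0.650 and 0.654 to 0.754 and 0.740 (adjusted p = 0.0142). In treated PCGF35 libraries of day 6 Trim25 stood at 80.4 and 95.2 CPM, and in the SPOC line at 41.4 and 48.6 CPM, on unscaled library sizes. Xaf1, at chr11:72301628-72313733, stood at 1.37 and 1.44 CPM in WT and at 5.97 and 8.44 CPM in PCGF35 (log2 fold change 2.33, SE 0.28, adjusted p = 0.0294). Lgals9, at chr11:78962978-78984924, stood at 1.15 and 0.883 CPM in WT and at 5.00 and 8.11 CPM in PCGF35 (log2 fold change 2.65, SE 0.36, adjusted p = 0.0428). The fold changes of Xaf1 and Lgals9 were above the 1.25-fold median of their chromosome, and neither passed the threshold on day 3 (adjusted p of 0.0715 and 0.086).

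Nim1k, which encodes an AMPK-related kinase and lies at chr13:119710093-119755882, showed the largest called increase. It stood at 1.44 and 3.05 CPM in WT and at 18.0 and 17.3 CPM in PCGF35 (log2 fold change 2.99, SE 0.30, adjusted p = 0.0223), and it also passed on day 3 (2.01, adjusted p = 0.0193). The increase came with a change of allele. The Dom ratio of Nim1k was 0.833 and 0.435 in WT, from 12 and 23 fragments, and 0.108 and 0.0404 in PCGF35, from 203 and 99 fragments (log2 odds ratio -3.83, SE 0.64, adjusted p = 3.55e-05). On unscaled library sizes, Nim1k was at 12.2 and 10.9 CPM in treated PCGF35 cultures of day 6 and at 13.5 and 10.6 CPM in untreated PCGF35 mESC. It was at 3.97 and 2.93 CPM in the SPOC line and at 4.36 and 3.41 CPM in the line whose Xist lacks the Polycomb-recruiting region. The Dom ratio of Nim1k was 0.173 and 0.205 in the treated cultures, 0.194 and 0.271 in the mESC, 0.656 and 0.810 in the SPOC line and 0.833 and 0.612 in the line without the Polycomb-recruiting region, the 0.833 from 6 fragments. In these libraries, levels of PCGF35 were higher and Dom ratios lower than in the other lines.

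Rin3 and Prickle1 completed the genes that rose. Rin3, an exchange factor for Rab5 GTPases at chr12:102283073-102390854, was at 9.73 and 8.35 CPM in WT and at 29.2 and 26.6 CPM in PCGF35 (log2 fold change 1.63, SE 0.21, adjusted p = 0.0372). Prickle1, a planar cell polarity gene at chr15:93499113-93595891, was at 23.6 and 32.8 CPM in WT and at 72.6 and 76.0 CPM in PCGF35 (log2 fold change 1.40, SE 0.20, adjusted p = 0.0464). Prickle1 passed on day 3 too (1.82, adjusted p = 0.0174). Neither showed a called difference in allele balance, with adjusted p of 0.323 for Rin3 and 0.449 for Prickle1.

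Among the 16 genes that fell, transcription factors stood beside enzymes and receptors. Nfib, a nuclear factor I gene on chromosome 4, had 386 and 446 CPM in WT and 162 and 139 CPM in PCGF35 (log2 fold change -1.47, SE 0.16, adjusted p = 0.0223), with Dom ratios between 0.550 and 0.577 in all 4 libraries. Bnc2, a zinc finger gene on the same chromosome, had 1015 and 1225 CPM in WT and 505 and 572 CPM in PCGF35 (-1.06, adjusted p = 0.0498), and Dom ratios between 0.503 and 0.511. In both genes the 2 alleles kept their proportion while the total was lower. Aoah, an acyloxyacyl hydrolase that inactivates bacterial lipid A, had 50.7 and 50.6 CPM in WT and 16.0 and 19.4 CPM in PCGF35 (-1.52, adjusted p = 0.0223). Phf11d, a PHD finger gene, fell by 1.75 on the log2 scale (adjusted p = 0.0394), from 18.4 and 20.6 CPM to 5.79 and 5.78 CPM. Libraries of the lines did not overlap in any of these 4 genes, which was a condition for naming them.

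Psma8, a proteasome subunit of the testis, had 28.8 and 32.7 CPM in WT and 12.4 and 12.6 CPM in PCGF35 (-1.30, adjusted p = 0.0223). Hsf2bp, a meiotic recombination gene, had 127 and 152 CPM in WT and 62.2 and 66.7 CPM in PCGF35 (-1.12, adjusted p = 0.0464). Cth, the cystathionine gamma-lyase of cysteine synthesis, fell by 1.11 on the log2 scale and the adhesion receptor gene Gpr126 fell by 1.06, both with adjusted p under 0.05. Dtna (-1.04) and Mme (-0.97), which encode dystrobrevin alpha and neprilysin, were also called. Gm14322 (-1.18), Gm14403 (-0.94), Zfp936 (-1.03) and Zfp534 (-0.92) belong to clusters of similar zinc finger genes. The study kept only uniquely aligned reads, so reads shared by similar genes are missing and these values are uncertain. Dtna, Mme, Gm14403, Zfp936 and Zfp534 are named because the count of called genes includes them, and were chosen after their values were seen.

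Genes of naive pluripotency had lower values in PCGF35. This list comprises transcription factors and other genes that mark the naive state of mESC and are switched off on differentiation. Of 19 tested members, 2 were called lower and 0 higher, 18 had a fold change below 0, and in 17 both PCGF35 libraries lay below both WT libraries (background 20.5%). The median log2 fold change was -0.78, against 0.02 over all genes tested. At an unadjusted p under 0.05, 14 members were lower (background 6.38%), and DESeq2 called 7 (background 1.27% lower). With the replicate block, 7 were called, against 465 of the 14774 genes in either direction. Averaged over both days, 14 of the 19 were called lower (background 4.26%) and 0 higher (background 4.75%). The summed level of the list was 1201 and 1353 CPM in WT and 805 and 722 CPM in PCGF35, on unscaled library sizes. In the same libraries, the summed level of 16 extraembryonic endoderm markers was 666 and 1254 CPM in WT and 1954 and 6761 CPM in PCGF35.

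The called members were Tfcp2l1 and Zfp42. Tfcp2l1, a transcription factor of the naive network, had 87.8 and 106 CPM in WT and 44.7 and 40.9 CPM in PCGF35 (log2 fold change -1.17, SE 0.17, adjusted p = 0.0464), and it passed on day 3 as well (-1.20, adjusted p = 0.0186). Zfp42, also known as Rex1, had 146 and 141 CPM in WT and 78.7 and 68.7 CPM in PCGF35 (-0.96, SE 0.12, adjusted p = 0.0372). Its allele balance differed too, since the Dom ratio of Zfp42 was 0.365 and 0.367 in WT and 0.549 and 0.541 in PCGF35 (adjusted p = 5.34e-10). Zfp42 lies on chromosome 8, whose pooled Dom share was 35.0% in WT and 35.6% in PCGF35, so the WT ratio was the one near the chromosome's share. Other members, chosen after their values were seen, did not pass the test. Tet2, a 5-methylcytosine dioxygenase, had 95 and 129 CPM in WT and 56.0 and 50.4 CPM in PCGF35 (adjusted p = 0.0621). Esrrb had 257 and 383 CPM in WT and 188 and 174 CPM in PCGF35 (adjusted p = 0.22), and Nanog 20.8 and 25.3 CPM against 13.8 and 13.7 CPM (adjusted p = 0.125). Without either PCGF35 library of day 6 no member of the list was called, and the median then was -0.90 or -0.77.

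**Figure D4:**
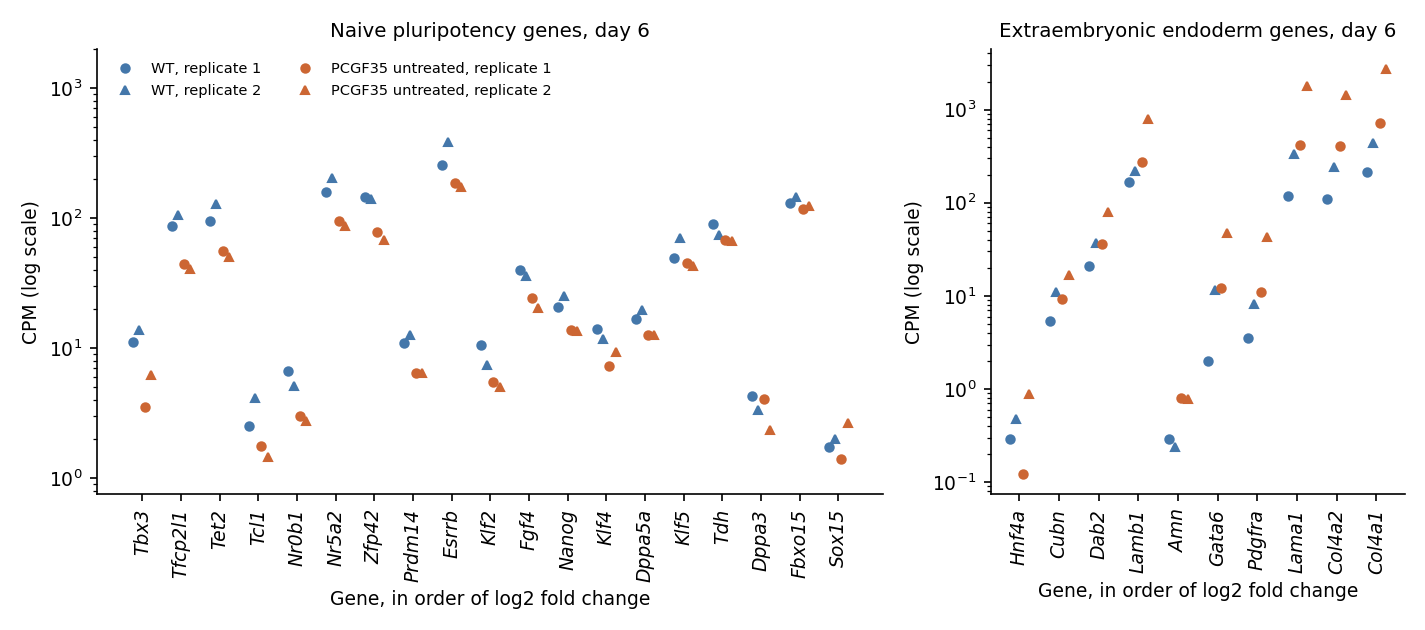
Levels in CPM on a log axis of 19 genes of naive pluripotency and 10 genes of extraembryonic endoderm on NPC day 6, with 1 point per library and 2 libraries per line. In 17 naive genes both PCGF35 points lie below both WT points, and in 7 endoderm genes both lie above.

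Core and formative pluripotency genes, which mark all pluripotent cells or the step after the naive state, gave no call. Of 18 tested, 0 were called by edgeR and 0 by DESeq2. At an unadjusted p under 0.05, 2 were higher (background 8.04%) and 0 lower (background 6.38%), and the median log2 fold change was 0.16. Pou5f1, the gene of OCT4, had 76.7 and 44.9 CPM in WT and 48.1 and 55.4 CPM in PCGF35. The de novo methyltransferase gene Dnmt3b had 430 and 191 CPM in WT and 392 and 565 CPM in PCGF35 (0.62, adjusted p = 0.446), and the RNA-binding protein gene Lin28b 218 and 247 CPM against 231 and 249 CPM. The libraries of the lines overlapped in all 3 genes.

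Markers of extraembryonic endoderm, the lineage that forms yolk sac, had higher values in PCGF35 but varied widely between cultures. Of 10 tested, 0 were called by edgeR and 0 by DESeq2, while 6 were higher (background 8.04%) and 0 lower at an unadjusted p under 0.05. With the replicate block, 7 of the 10 were called higher, against 465 of the 14774 genes in either direction. The second culture had the higher summed level in both lines. Both PCGF35 libraries lay above both WT libraries in 7 (background 23.4%), and the median log2 fold change was 1.83. The summed level, given above, was higher in both PCGF35 libraries than in both WT libraries, and within each line it differed between the cultures by more than 1.5-fold. Col4a1, a basement membrane collagen, had 212 and 437 CPM in WT and 721 and 2692 CPM in PCGF35 (log2 fold change 2.4, SE 0.76, adjusted p = 0.204). Lama1, a laminin chain, had 118 and 333 CPM in WT and 418 and 1804 CPM in PCGF35 (2.3, adjusted p = 0.253). Afp and Ttr, markers of visceral endoderm, were at 0 counts in 1 library of each line and at 0.3 CPM or less in the other. The transcription factor gene Gata6 had 2.02 and 11.5 CPM in WT and 12.2 and 47.3 CPM in PCGF35. Averaged over days, Col4a1, Col4a2 and Pdgfra were called higher among the 10 (background 4.75%) and 0 lower (background 4.26%). Without the second PCGF35 library of day 6 the median of the list was 0.88, and without the first it was 2.41. Whether these cells had a part in the differences of other genes was not tested.

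Mesoderm and definitive endoderm genes were mostly near the limit of detection, and 9 of 18 were tested. None was called by edgeR, 4 were higher (background 8.04%) and 1 lower (background 6.38%) at an unadjusted p under 0.05, and DESeq2 called 2 higher (background 0.975%). The median log2 fold change was 0.79, also with Foxa2, which had 0 counts in both WT libraries, set to its bound. T, the Brachyury gene of early mesoderm, had 4.18 and 3.29 CPM in WT and 39.6 and 9.55 CPM in PCGF35 (2.74, SE 0.56, adjusted p = 0.0988), while its log2 fold change on day 3 was -0.43 (adjusted p = 0.831). Foxa2, a pioneer factor of endoderm, had 0.914 and 2.11 CPM in PCGF35. Gata4 had 5.19 and 21.2 CPM in WT and 24.6 and 85.0 CPM in PCGF35 (adjusted p = 0.331). In 6 of the 9 tested genes both PCGF35 libraries exceeded both WT libraries (background 23.4%), T, Foxa2 and Gata4 among them. In 2 of the 9 both lay below (background 20.5%).

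Neural progenitor genes divided in both directions. Of 34 listed genes 16 were tested, of which 0 were called by edgeR. At an unadjusted p under 0.05, 3 were higher (background 8.04%) and 4 lower (background 6.38%). By DESeq2, 1 was higher (background 0.975%) and 2 lower (background 1.27%). The median log2 fold change was 0.0012. Ncam1, a neural adhesion molecule, had 341 and 706 CPM in WT and 224 and 197 CPM in PCGF35 (-1.31, adjusted p = 0.138). Zfp521, a zinc finger factor of early neural commitment, had 186 and 263 CPM in WT and 119 and 94.8 CPM in PCGF35 (-1.07, adjusted p = 0.0847), and was called lower on day 3 (-2.21, adjusted p = 0.0146). In contrast, the intermediate filament gene Nes had 88.1 and 62.8 CPM in WT and 266 and 118 CPM in PCGF35 (1.35, adjusted p = 0.173). Sox1 and Sox2 were at 0 counts in all 58 libraries, mESC included, although Sox2 is a gene that mESC use, so these counts say nothing about the label NPC. Pax6, a further defining marker, was at 2.45 and 2.57 CPM in WT and 0.366 and 1.44 CPM in PCGF35. Averaged over days, 4 of the 16 neural genes were called lower (background 4.26%) and 1 higher (background 4.75%).

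Subunits of the PCGF and PRC1 complexes gave no call in edgeR. Of 32 tested, 0 were called by edgeR, 2 were higher (background 8.04%) and 1 lower (background 6.38%) at an unadjusted p under 0.05, and DESeq2 called 1 higher (background 0.975%). The median was 0.07. Auts2, a partner of PCGF3 and PCGF5, had 1240 and 1689 CPM in WT and 1673 and 1565 CPM in PCGF35. Mga, a DNA-binding subunit of the PCGF6 complex, had 763 and 628 CPM in WT and 494 and 467 CPM in PCGF35 (-0.53, adjusted p = 0.189), and Yaf2, an adaptor of non-canonical PRC1, had 38.0 and 45.6 CPM in WT and 65.6 and 69.5 CPM in PCGF35 (0.69, adjusted p = 0.133). Mga and Yaf2, alone of the 32, were called when both days were averaged (background 9.02%), with adjusted p of 0.0333 and 0.0225. PRC2 subunits gave 0 calls among 11 by edgeR and 0 by DESeq2, with 0 higher and 2 lower (background 6.38%) at an unadjusted p under 0.05, and a median of 0.01. Jarid2, a PRC2 cofactor, varied most between cultures, with 1342 and 3250 CPM in WT and 1524 and 6401 CPM in PCGF35. Suz12, a core PRC2 subunit on chromosome 11, had 356 and 490 CPM in WT and 517 and 511 CPM in PCGF35, and its Dom ratio rose from 0.558 and 0.519 to 0.691 and 0.713 (adjusted p = 2.93e-11).

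Xist, the noncoding RNA that coats and silences the X it is transcribed from, had 7440 and 9304 CPM in WT and 10560 and 13650 CPM in PCGF35, so the libraries did not overlap, but the log2 fold change of 0.53 (SE 0.19) did not pass the test (adjusted p = 0.248). On day 3 it was 0.67 (adjusted p = 0.0889), and averaged over days 0.60 (adjusted p = 0.0284). The Dom ratio of Xist was 0.9995 in both WT libraries and 0.9991 and 0.9992 in PCGF35. This difference of -0.00036 was called by edgeR's test of Dom and Cast counts (log2 odds ratio -0.83, SE 0.17, adjusted p = 0.0289). Of the 19 tested genes of the Xist region and its silencing factors, 0 were called by edgeR. At an unadjusted p under 0.05, 3 were higher (background 8.04%) and 0 lower, and DESeq2 called 1 higher (background 0.975%). The median was 0.11. Spen, which encodes the main silencing cofactor of Xist, had 143 and 122 CPM in WT and 157 and 140 CPM in PCGF35 (0.16, SE 0.15, adjusted p = 0.659). Ncor1, a corepressor that SPEN binds, lies on chromosome 11 and had 658 and 763 CPM in WT and 783 and 823 CPM in PCGF35. Its Dom ratio rose from 0.559 and 0.562 to 0.694 and 0.700 (adjusted p = 2.54e-12). The noncoding gene Jpx beside Xist had 4.04 and 3.77 CPM in WT and 8.77 and 8.67 CPM in PCGF35 (1.16, adjusted p = 0.0754), and was called on day 3 (1.52, adjusted p = 0.0186).

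The median allelic ratio of X-linked genes met between the lines on day 6, while the mean and the pooled ratio did not. The deposited ratio of 246 X-linked genes had medians of 0.0833 and 0.0886 in the WT libraries and 0.0649 and 0.0833 in the PCGF35 libraries on day 6. On day 3 the medians were 0.192 and 0.178 in WT and 0.184 and 0.190 in PCGF35. The difference of PCGF35 from WT was -0.0118 on day 6 and 0.00172 on day 3, beside a pooled SD of 0.00867 between libraries of a group. Averaged over days it was -0.00505 (p = 0.556, exact two-sided permutation test within days, smallest possible p 0.0556). On day 6 the mean ratio was 0.106 and 0.114 in WT and 0.0829 and 0.0993 in PCGF35, and the pooled ratio 0.114 and 0.112 against 0.0861 and 0.109, so by both measures the PCGF35 libraries lay below the WT libraries. A ratio under 0.1 was seen on day 6 for 146 and 129 of the genes in WT and for 165 and 135 in PCGF35.

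Gene by gene, 8 of 214 tested X-linked genes were called with a lower Dom ratio in PCGF35 on day 6 (3.74%) and 0 with a higher one. Over autosomal genes without chromosome 11, the shares called were 0.737% lower and 0.59% higher. At an unadjusted p under 0.05, 36 X-linked genes were lower and 5 higher, without a share over other genes to set beside them. Both PCGF35 libraries lay below both WT libraries in 75 genes (35%) and above in 23 (10.7%), where the shares over autosomal genes without chromosome 11 were 18.1% and 18.5%. Limma on the ratios called 1. On day 3, 9 genes were called (4.21%), 8 higher (3.74%) and 1 lower (0.467%), and none of these was among the 8 of day 6. The day 3 shares over autosomal genes without chromosome 11 were 1.61% higher and 1.06% lower. The difference between days was called by edgeR for 0 of the 214 (0.0349% over all genes tested). At an unadjusted p under 0.05 there were 33, again without a share over other genes.

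**Figure D5:**
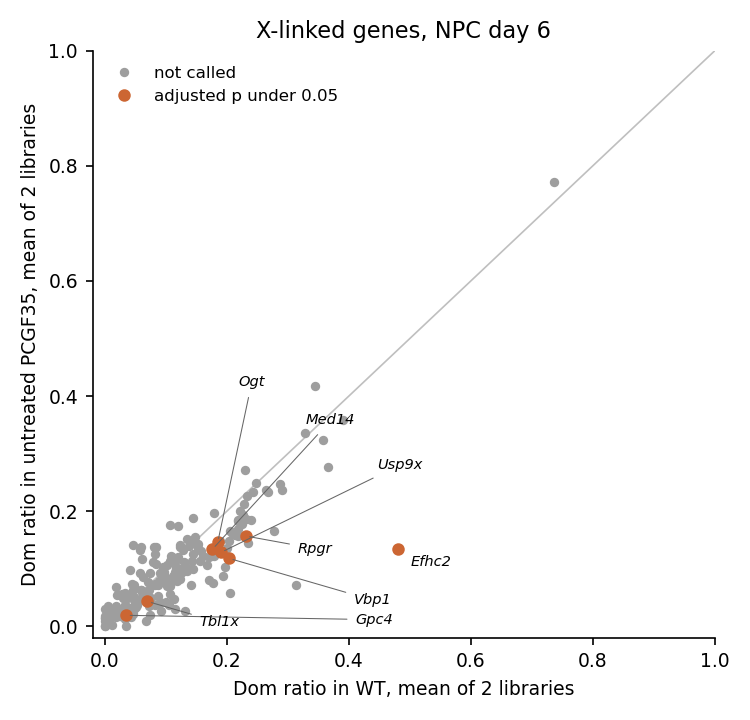
Mean Dom ratio of 214 X-linked genes on NPC day 6, with WT on the horizontal and PCGF35 on the vertical axis, each the mean of 2 libraries, and the diagonal as the line of equal ratios. The 8 called genes, in colour, lie below the diagonal, and 134 of the 214 genes do.

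Usp9x, a deubiquitinase gene at chrX:13071497-13173327 that keeps some expression from an inactive X, carried the deepest coverage among the called genes. Its Dom ratio was 0.196 and 0.184 in WT and 0.114 and 0.143 in PCGF35, from 2190 to 3733 fragments per library (log2 odds ratio -0.70, SE 0.09, adjusted p = 7.01e-07). In treated PCGF35 libraries the ratio of Usp9x was 0.275 and 0.285, and in the SPOC line 0.505 and 0.524. Tbl1x, a component of the NCoR corepressor complex, had ratios of 0.0792 and 0.0604 in WT and 0.0363 and 0.0502 in PCGF35 (adjusted p = 0.000643). Rpgr, a gene of the photoreceptor cilium, had ratios of 0.229 and 0.233 in WT and 0.170 and 0.144 in PCGF35 (adjusted p = 0.0102). Vbp1, a prefoldin subunit, had 0.232 and 0.175 in WT and 0.117 and 0.119 in PCGF35 (adjusted p = 0.0149). In all 4 genes the lines did not overlap, as the rule for naming genes required.

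The remaining called genes showed smaller or less certain differences. Med14, a Mediator subunit, had ratios of 0.168 and 0.184 in WT and 0.119 and 0.148 in PCGF35 (adjusted p = 0.0162). Ogt, the O-GlcNAc transferase gene, had 0.182 and 0.188 in WT and 0.149 and 0.142 in PCGF35 (adjusted p = 0.0408). The heparan sulfate proteoglycan gene Gpc4 was almost silent on the Dom allele in both lines, with 0.0393 and 0.0305 in WT and 0.0193 and 0.0189 in PCGF35 (adjusted p = 0.0129). Efhc2 rested on 25 to 44 fragments per library and went from 0.386 and 0.576 to 0.0286 and 0.240 (adjusted p = 0.0121). Outside the 246 genes, Mid1 was at 0.00728 and 0.0207 in WT and at 0.00543 and 0.00571 in PCGF35 (adjusted p = 0.00401). Mid1 lies beyond the part of the X that the study analysed by allele in lines from iXist-ChrX-Dom. Its values are therefore not read as a change of the Dom allele. Tsix, the antisense partner of Xist, rose from 0.0789 and 0.0584 to 0.212 and 0.102 (adjusted p = 0.000383), and its total level was 138 and 153 CPM in WT and 134 and 131 CPM in PCGF35 (log2 fold change -0.13, adjusted p = 0.744), lower in both PCGF35 libraries but not called. The counting was strand-specific, and even a small share of Xist fragments on the wrong strand would enter Tsix, which was not tested.

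Away from chromosome 11 and the X, 60 autosomal genes had a higher and 75 a lower Dom ratio in PCGF35 (0.59% and 0.737% of 10170). Of the 75, 28 were also called lower on day 3, which is 37.3% of the day 6 calls and 25.9% of the 108 day 3 calls (1.06% of genes). Of the 60, 27 were called higher on day 3, which is 45% of the day 6 calls and 16.5% of the 164 day 3 calls (1.61% of genes). The largest called losses of Dom ratio included Pkhd1 on chromosome 1, the fibrocystin gene. Its ratio was 0.795 and 0.862 in WT and 0.611 and 0.549 in PCGF35 (log2 odds ratio -1.67, SE 0.24, adjusted p = 2.49e-06), with total levels of 47.0 and 31.7 CPM in WT and 20.2 and 17.9 CPM in PCGF35 (log2 fold change -1.04, adjusted p = 0.0989). Scn3a on chromosome 2, a sodium channel gene, had ratios of 0.819 and 0.857 in WT and 0.600 and 0.638 in PCGF35 (adjusted p = 0.000973). Ly75 on the same chromosome, an endocytic receptor gene, had 0.819 and 0.806 in WT and 0.641 and 0.593 in PCGF35 (adjusted p = 2.81e-05). Neil2 on chromosome 14, a DNA glycosylase gene, had 0.873 and 0.870 in WT and 0.703 and 0.697 in PCGF35 (adjusted p = 0.00219). In these 4 genes a strong Dom bias in WT was weaker in PCGF35, with the non-overlap that the rule for naming required. Pkhd1, Scn3a, Ly75 and Neil2 were also called on day 3.

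The other 6 genes of this group were Zbtb16 on chromosome 9, Igsf11 and Sema5b on chromosome 16, Pde4b on chromosome 4, Tmem116 on chromosome 5 and Fam189a2 on chromosome 19. Zbtb16, the transcription factor PLZF, had ratios of 0.755 and 0.718 in WT and 0.394 and 0.521 in PCGF35, from 49 to 96 fragments (adjusted p = 0.00635). Igsf11, an adhesion molecule gene, had 0.800 and 0.746 in WT and 0.551 and 0.514 in PCGF35 (adjusted p = 0.00245). Sema5b, a semaphorin gene, had 0.687 and 0.766 in WT and 0.574 and 0.506 in PCGF35 (adjusted p = 0.00349). Adjusted p was 0.0263 for the phosphodiesterase gene Pde4b, 0.0437 for Tmem116 and 0.0497 for Fam189a2.

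Further gene groups gave no call in edgeR on day 6. For the counts below, the background at an unadjusted p under 0.05 was 8.04% higher and 6.38% lower. By DESeq2 it was 0.975% higher and 1.27% lower. Fibroblast genes, which would mark feeder cells, stood at a median of 0.56 on the log2 scale over 15 genes, with 2 higher and 0 lower at an unadjusted p under 0.05 and 0 by DESeq2. Their summed level was 780 and 776 CPM in WT and 1331 and 646 CPM in PCGF35, so the lines overlapped, and Fn1, the fibronectin gene, had 534 and 539 CPM against 801 and 440 CPM. The defining marker Lum was at 0 counts in 49 of 58 libraries. Among 7 trophoblast genes the median was 0.13, with 2 higher and 1 lower at an unadjusted p under 0.05 and 0 by DESeq2. Among 5 neural crest genes it was 0.59, with 2 higher and 1 lower, and DESeq2 called 1 lower. Among 13 genes of early neurons it was -0.14, with 2 higher and 1 lower, and DESeq2 called 1 higher. Of the Hox genes only Hoxc13 had enough counts to be tested, at 0.793 and 1.20 CPM in WT and 0.244 and 0.444 CPM in PCGF35 (adjusted p = 0.376), and 3 genes of the two-cell-like state were tested at levels near 0.

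Targets of signalling pathways gave no call in edgeR either. The background was again 8.04% higher and 6.38% lower at an unadjusted p under 0.05, and 0.975% and 1.27% by DESeq2. Over 19 target genes of ERK signalling the median log2 fold change was 0.38, with 2 higher and 0 lower at an unadjusted p under 0.05 and 0 by DESeq2. The ERK target Etv5 had 165 and 150 CPM in WT and 216 and 207 CPM in PCGF35 and was called higher on day 3 (adjusted p = 0.0366). The 17 Wnt and BMP target genes had a median of 0.34, with 2 higher and 0 lower, and 0 by DESeq2. Lef1, a Wnt effector, had 111 and 78.9 CPM in WT and 140 and 153 CPM in PCGF35 and was called higher on day 3 (1.75, adjusted p = 0.0146). The 12 retinoic acid genes had a median of 0.39, with 1 higher and 3 lower, and 1 lower by DESeq2, and Rarb had 36.5 and 47.0 CPM in WT and 18.8 and 24.7 CPM in PCGF35 (adjusted p = 0.11). The 18 p53 targets had a median of 0.02, with 1 higher and 3 lower and 0 by DESeq2. Trp53 itself lies on chromosome 11 and had 85.0 and 77.2 CPM in WT and 95.5 and 96.0 CPM in PCGF35 (0.24, adjusted p = 0.41).

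Genes read out by DNA methylation or imprinting were also without a call in edgeR. Background shares were the same, 8.04% higher and 6.38% lower at an unadjusted p under 0.05, and 0.975% and 1.27% by DESeq2. Among 39 imprinted genes the median was 0.01, with 3 higher and 2 lower at an unadjusted p under 0.05, and DESeq2 called 1 in each direction. Airn, the noncoding RNA that silences the Igf2r cluster, had 208 and 328 CPM in WT and 498 and 690 CPM in PCGF35 (1.15, SE 0.23, adjusted p = 0.0988) and was called higher on day 3 (1.45, adjusted p = 0.0261). Rian had 7088 and 6262 CPM in WT and 6895 and 6411 CPM in PCGF35. Among 19 germline genes that DNA methylation represses the median was 0.19, with 0 higher and 1 lower, and 0 by DESeq2. Among 11 writers and erasers of DNA methylation it was -0.06, with 2 higher and 2 lower, and DESeq2 called 1 in each direction. Tet3 had 36.2 and 47.0 CPM in WT and 64.9 and 75.4 CPM in PCGF35 (0.75, adjusted p = 0.105), whereas Tet1 had 563 and 594 CPM against 442 and 460 CPM (adjusted p = 0.255). Members named here with adjusted p above the threshold were in part chosen after their values were seen.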

How the data were processed

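ChrRNA-seq counts of 8 libraries, WT and untreated PCGF35 on NPC days 3 and 6 with 2 libraries each, were analysed. The sources name Bowtie2 2.3.2, STAR 2.4.2a and featureCounts with the mm10 genome. The authors aligned read pairs to a masked genome, divided them by allele and counted strand-specifically over whole genes, introns included. The deposited counts are raw and not pooled, and give all, Cast and Dom fragments for 22556 genes, 908 of them on the X. A deposited table holds the Dom ratio of 246 X-linked genes as a fraction from 0 to 1, and recomputing it from the counts gave a largest difference of 5.55e-16.

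Total depth of the 8 libraries was 9.19 M to 17.0 M fragments, and on day 6 the median X-linked gene of the ratio table had 70 to 130 allelic fragments. Intervals cover counting error only, as molecules were not tagged. The study describes duplicate experiments for each line, and PCGF35 has 1 clone here, so p-values measure the spread between experiments, not between clones. Duplicate libraries differed by more than sampling noise, at 11.2 to 39.3 chi-square units per degree of freedom, and each was counted as 1 replicate. Fits and permutations treated days 3 and 6 as independent, although both may come from the same duplicate experiments. Deviations of same-numbered libraries correlated between days by 0.535 in WT and 0.218 in PCGF35. If the days are not independent, p-values from both days are too small.

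Expression was tested with edgeR 4.0.16 (R 4.3.3, limma 3.58.1) by the quasi-likelihood test after filterByExpr and TMM scaling, with 1 mean per group over the 8 libraries and Benjamini-Hochberg adjustment at 0.05. CPM is on TMM-scaled library sizes, except where stated as unscaled and in summed levels. Allele balance was tested with the same tool on Dom and Cast counts, with a term per library, for 11473 genes with at least 10 allelic fragments in each library. Chromosome shares and X medians were compared by exact permutation within days (scipy 1.17.1, pandas 2.3.3, Python 3.11.15). Figures were drawn with matplotlib 3.10.9. On simulated data the expression test recovered 64% of 100 genes changed 2-fold and 98% of 100 changed 4-fold, with 13 false calls among 14774 genes. The allele test recovered 9% at an odds ratio of 2 and 70% at 4, with 9 false calls among 11473 genes. The spread of allele ratios between simulated libraries was a set value, not estimated from these data. Only well-covered genes were changed, and in the allele test only genes with ratios away from 0 and 1. Many X-linked genes, whose day 6 library medians were 0.0649 to 0.0886, had ratios nearer 0. The recovery of the allele test in the real libraries may therefore differ from these shares.

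The comparison and the 21 gene lists, 430 entries, were chosen with earlier results of these data known. Genes named were the engineered genes, at most 10 per direction with the largest called change and groups that do not overlap, and of each list the called members or the 2 with the highest CPM. Called genes also needed at least 5 CPM as the mean of the higher group, or 20 allelic fragments in each library of day 6. Some genes thus reached 5 CPM only in the line where they were higher. A gene that met this rule is not reported here. Alternatives were DESeq2 1.42.0, other scalings and filters, other sets of libraries, a replicate block and leaving out each library. Promoters were read from RefSeq on GRCm38.p6, where 12 of the 16 genes named for expression had an entry.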

Additional observations from a re-analysis of the deposited data

Results flagged for a closer look

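Among 11473 genes tested for allele balance, the difference between PCGF35 and WT changed between day 3 and day 6 in 4 (0.0349%), by the interaction term of edgeR's quasi-likelihood test with an adjusted p under 0.05. Slit3 on chromosome 11, a secreted guidance factor gene, had Dom ratios on day 3 of 0.840 and 0.823 in WT and 0.914 and 0.910 in PCGF35, and on day 6 of 0.888 and 0.891 in WT and 0.920 and 0.923 in PCGF35. The line difference of Slit3 was smaller on day 6 by a log2 odds ratio of -0.5332 (adjusted p = 0.0158). Ghr on chromosome 15, the growth hormone receptor gene, had 0.292 and 0.243 in WT and 0.437 and 0.447 in PCGF35 on day 3, and 0.457 and 0.471 against 0.521 and 0.483 on day 6, an interaction of -0.8976 (adjusted p = 0.00562).

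Nxph1 on chromosome 6, a neurexophilin gene, gave the interaction in the other direction. Its ratio was 0.273 and 0.321 in WT and 0.203 and 0.252 in PCGF35 on day 3, and 0.163 and 0.0943 against 0.372 and 0.315 on day 6, an interaction of 2.18 (adjusted p = 0.0158). These values of Nxph1 rest on 89 to 363 fragments per library.

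Cmss1 on chromosome 16 had ratios of 0.0608 and 0.0485 in WT and 0.326 and 0.169 in PCGF35 on day 3, and of 0.0467 and 0.0481 against 0.118 and 0.0523 on day 6, an interaction of -1.659 (adjusted p = 0.0158). This gene alone took 0.553% and 0.459% of all fragments in WT and 0.140% and 0.442% in PCGF35 on day 6, and was left out of the denominators of chromosome 11 above.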

How the results depend on the processing

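The chromosome 11 difference in Dom share kept its direction under all 5 alternatives, at 13.7 to 15.3 points, and the X median difference under all 12, at -0.00965 to -0.000448. Xist did not pass in any of 15 alternatives (log2 fold change 0.33 to 0.70). The interaction of line and day in expression stayed at 0 calls.

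The 22 expression calls of day 6 were the least stable result. They became 14 with median-ratio size factors, 13 with TMM factors from autosomes without chromosome 11 (added after the data were seen), 292 without a filter on low counts, 332 with DESeq2, 8 with all 58 libraries in the fit, of which 3 were shared, and 0 with the day 6 libraries alone (1720 at an unadjusted p under 0.05). Leaving out single libraries gave 0 to 110 calls, with 0 without either PCGF35 library of day 3, 53 and 50 without the first or second WT library of day 3, and 110, 1, 0 and 1 without the libraries of day 6 named in the report. The 400 calls of day 3 became 985 without a filter, 874 with DESeq2, 53 with all 58 libraries and 0 to 735 when libraries were left out. Limma on the ratios called 1 X-linked gene on day 6, 1 on day 3 and 422 autosomal genes on day 6, against 8, 9 and 715 by edgeR. Leaving out libraries gave 3 to 12 X-linked genes on day 6, 5 to 11 on day 3 and 534 to 763 autosomal genes. The cause was not tested.

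Replicate numbers are shared between the lines without a stated pairing. Deviations from the group means correlated by 0.104 between same-numbered libraries of day 6 and by 0.209 on day 3, and between days by 0.535 in WT and 0.218 in PCGF35. With the replicate block, 465 genes were called on day 6, including all 22, and 1490 on day 3, while 9 X-linked and 751 autosomal genes differed in allele balance on day 6 and 10 X-linked genes on day 3. The block also called 7 of the 10 extraembryonic endoderm genes higher and 7 of the 19 naive genes lower.

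With 2 libraries a group, the exact test cannot go below 0.333 within a day. The depth of 9.19 M in the second PCGF35 library limits the allele ratios of low genes.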
